A study of Rattus norvegicus with 22 samples.

Results

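Perineuronal nets are lattices of extracellular matrix that coat the cell body and proximal dendrites of certain neurons, above all fast-spiking interneurons that make parvalbumin. Their chondroitin sulfate proteoglycans, the lecticans, hang on a backbone of hyaluronan, link proteins lock each lectican to that backbone, and tenascins cross-link the lecticans at their far end. These nets form as plasticity closes, and enzymes that digest them reopen it. The set described here is a list of 9 genes, given by name and not chosen from a measured value: the lecticans Acan, Bcan, Ncan and Vcan, the link proteins Hapln1 and Hapln4, the tenascins Tnr and Tnc, and Ptprz1, a receptor phosphatase that carries chondroitin sulfate and is also shed as the proteoglycan phosphacan. All 9 were among the 17172 genes counted, and 7 passed the filter on low counts and were tested with the 12875 genes that did. The other two, Ncan and Hapln4, were close to 0 in every library.

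RNA-seq was performed on bulk ipsilateral hippocampus of 14 adult male Sprague-Dawley rats, an outbred strain without any transgene or mutation. TBI rats received lateral fluid percussion and were killed 1 day (n = 4) or 14 days (n = 4) later, and sham rats had surgery and anesthesia without the percussion and were killed at 1 day (n = 2) or 14 days (n = 4). The labels number the replicates of each group and the study's group sizes count rats, so each sample was taken as a separate rat. Total counts per library were 15065540 to 23743703. Levels are given as CPM, counts scaled to the TMM-adjusted library total, and changes as log2 fold changes ± SE from edgeR's quasi-likelihood test over all 14 samples, with Benjamini-Hochberg adjusted p-values over 12875 genes and a threshold of 0.05. CPM are not corrected for gene length, so levels are compared between samples and not between genes.

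Markers of excitatory hippocampal neurons were counted in every group, but 3 libraries stood apart through markers of the choroid plexus, the secretory epithelium of the ventricles that lies next to the hippocampus. The summed level of 18 such markers was 11470 CPM in sham day 1 replicate 1 and 263 CPM in sham day 1 replicate 2. It was 2174 and 8928 CPM in TBI day 14 replicates 2 and 3, and between 153 and 332 CPM in the other 10 libraries. Member calls that change without these 3 libraries are given both ways. With only 2 sham rats at day 1, that contrast leans on each of them.

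Of the 7 tested genes, 5 changed 1 day after TBI: Hapln1, Acan, Tnr and Bcan fell and Tnc rose. Among all tested genes, 7.93% fell and 11.2% rose. In all 7 genes the TBI and sham rats did not overlap at day 1, with TBI higher in 3 and lower in 4, beside 16.7% and 14.1% of all tested genes. Scaled by library totals without TMM factors, a setting added after the values were seen that shifted the median of all genes by 0.17, 4 of the 7 (Hapln1, Tnc, Vcan and Ptprz1) still did not overlap, and 2 members were called lower and 2 higher, with 573 and 2051 calls over all genes in place of 1021 and 1437. Vcan and Ptprz1 did not pass the test. The median log2 fold change of the 7 genes was −0.61, beside −0.02 over all tested genes. With 7 genes this median is the value of a single gene, Bcan. It was −0.45 with library totals, beside 0.15 over all tested genes. Leaving out sham day 1 replicate 1 gave −0.28, and leaving out replicate 2 gave −0.42. In bulk tissue, fewer cells of a type and less RNA per cell cannot be told apart.

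**Figure D1:**
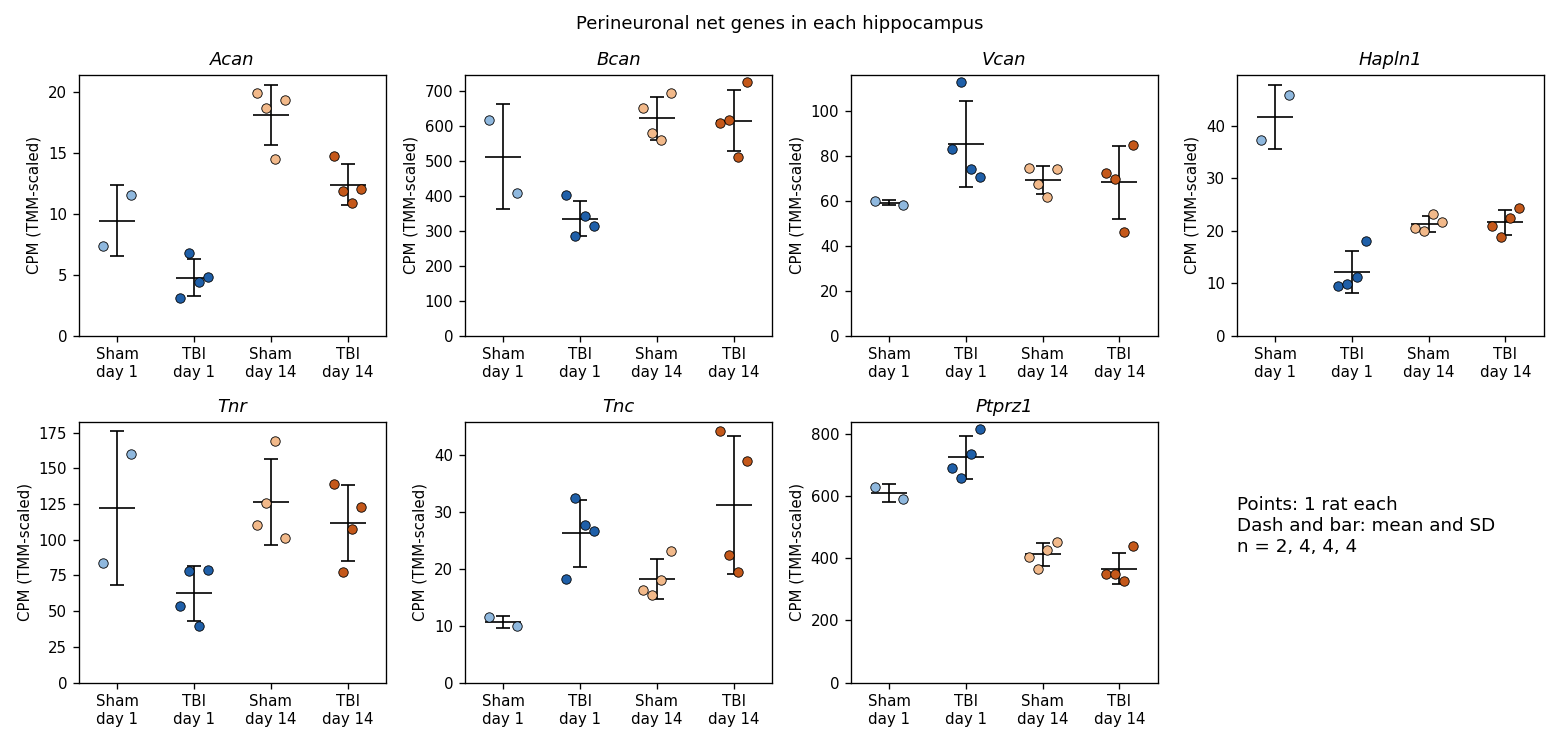
Level of each tested gene in every hippocampus, in TMM-scaled CPM on axes that start at 0, with 1 point per rat and a dash and bar for the mean and SD of each group (n = 2, 4, 4 and 4). Hapln1 lay at 9.55 to 18.1 CPM in the TBI day 1 rats and above 37 CPM in both sham rats of that day, while at day 14 the TBI and sham points overlapped for all 7 genes.

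Hapln1, the link protein that fastens lecticans to hyaluronan in nets, had the largest change of the set. It was at 37.4 and 46.0 CPM in the sham rats at day 1 and at 9.55, 9.78, 11.1 and 18.1 CPM in the TBI rats. The groups did not overlap, and Hapln1 was 3.43-fold lower after TBI (log2 fold change −1.78 ± 0.22, adjusted p = 7.49e-05, edgeR). At day 14 sham rats had 19.9 to 23.3 CPM and TBI rats 18.7 to 24.4 CPM, a log2 fold change of 0.02 ± 0.18 (adjusted p = 0.987, edgeR). The effect of TBI differed between the days by −1.80 ± 0.29 (adjusted p = 0.00437, edgeR), a test that 1.44% of all genes passed in that direction and 2.24% in the other. Hapln1 was the only one of the 7 to pass it. Sham rats themselves differed, with Hapln1 higher at day 1 than at day 14 by 0.97 ± 0.22 (adjusted p = 0.00918, edgeR), a call lost without sham day 1 replicate 2 (0.81, adjusted p = 0.0849, edgeR). Against the sham rats of day 14 in place of day 1, the TBI day 1 rats were lower by less, at −0.81 ± 0.19 (adjusted p = 0.00262, edgeR). The fall against sham day 1 was called in all 14 fits that left out 1 library, between −2.04 and −1.62. Without the 3 libraries rich in choroid plexus markers it was −1.93 ± 0.27 (adjusted p = 0.000784, edgeR).

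Acan encodes aggrecan, the lectican that defines most nets. It was at 7.38 and 11.5 CPM in sham and 3.11, 4.40, 4.79 and 6.82 CPM in TBI rats at day 1. The levels did not overlap, but the gap was narrow and depended on scaling: per library total without TMM, the lower sham rat had 7.14 CPM and the highest TBI rat 7.25 CPM. Acan fell by 0.98 ± 0.26 on the log2 scale (adjusted p = 0.0180, edgeR). At day 14 sham rats had 14.6, 18.7, 19.3 and 19.9 CPM and TBI rats 10.9, 11.9, 12.1 and 14.8 CPM, so that a single TBI rat lay above the lowest sham rat. That difference, −0.55 ± 0.22, did not pass the test (adjusted p = 0.245, edgeR). With only the day 14 groups in the fit it was −0.51 and passed (adjusted p = 0.0381, edgeR). With only the day 1 groups in the fit, the day 1 change was −0.95 ± 0.36 and did not pass (adjusted p = 0.182, edgeR). Acan was also lower in sham rats at day 1 than at day 14, by −0.94 ± 0.27 (adjusted p = 0.0300, edgeR). That call held in 10 of 14 fits that left out 1 library, and was lost without sham day 1 replicate 1 (−0.65, adjusted p = 0.179, edgeR), without sham day 14 replicate 1, 2 or 4 (adjusted p = 0.0619 to 0.0676, edgeR), without the 3 libraries rich in choroid plexus markers (−0.64 ± 0.34, adjusted p = 0.216, edgeR) and with the marker level as a covariate (−0.76, adjusted p = 0.0816, edgeR). The fall after TBI was not called without sham day 1 replicate 2 (−0.62, adjusted p = 0.293, edgeR).

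Bcan, which encodes brevican, a lectican of nets and of the matrix around synapses, was at 408 and 619 CPM in sham and 284, 313, 343 and 402 CPM in TBI rats at day 1. The lower sham rat lay just above the highest TBI rat, and below it without TMM factors (373 against 451 CPM). Bcan fell by 0.61 ± 0.19 (adjusted p = 0.0341, edgeR). With only the day 1 groups in the fit, the change was −0.58 ± 0.25 and did not pass (adjusted p = 0.222, edgeR). With library totals in place of TMM factors it was −0.45 ± 0.20 and did not pass (adjusted p = 0.127, edgeR). Without sham day 1 replicate 1, the library rich in choroid plexus markers, the change was −0.28 (adjusted p = 0.351, edgeR), and without all 3 such libraries −0.29 ± 0.22 (adjusted p = 0.363, edgeR). The call held in 10 of 14 fits that left out 1 library. It was also lost without TBI day 1 replicate 2, 3 or 4 (adjusted p = 0.0518 to 0.0765, edgeR), with at least 10 counts required in every sample (adjusted p = 0.0515, edgeR) and with the choroid plexus marker level as a covariate (−0.57, adjusted p = 0.0932, edgeR). At day 14 sham rats had 562 to 696 CPM and TBI rats 511 to 726 CPM, and the log2 fold change was −0.02 ± 0.16 (adjusted p = 0.986, edgeR).

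Tnr encodes tenascin-R, the tenascin that neurons and oligodendrocytes of the adult brain deposit in nets. At day 1 the sham rats were far apart, at 83.8 and 160 CPM, and the TBI rats were at 39.5, 53.4, 78.1 and 79.0 CPM. All TBI rats lay below both sham rats, though not without TMM factors, where the highest TBI rat had 83.1 CPM and the lower sham rat 81.0 CPM. Tnr fell by 0.96 ± 0.31 (adjusted p = 0.0408, edgeR). With only the day 1 groups in the fit, the change was −0.93 ± 0.33 and did not pass (adjusted p = 0.157, edgeR). With library totals in place of TMM factors it was −0.79 ± 0.30 and did not pass (adjusted p = 0.0800, edgeR). The call held in 8 of 14 fits that left out 1 library. It was lost without sham day 1 replicate 2 (−0.42, adjusted p = 0.560, edgeR), without TBI day 1 replicates 1 or 3, sham day 14 replicates 1 or 2 or TBI day 14 replicate 4 (adjusted p = 0.0519 to 0.0845, edgeR), with the replicate number as a block (−0.97, adjusted p = 0.0731, edgeR) and with limma-voom (adjusted p = 0.0537). At day 14 the groups overlapped, with 101 to 169 CPM in sham and 77.2 to 139 CPM in TBI rats (−0.18 ± 0.26, adjusted p = 0.881, edgeR).

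Tnc went the other way. It encodes tenascin-C, the tenascin of developing and injured tissue, which in brain is made mainly by astrocytes and their precursors. At day 1 it was at 9.87 and 11.4 CPM in sham and 18.2, 26.6, 27.7 and 32.3 CPM in TBI rats, without overlap. Tnc rose 2.46-fold (log2 fold change 1.30 ± 0.33, adjusted p = 0.0129, edgeR). At day 14 sham rats had 15.3, 16.3, 18.1 and 23.1 CPM and TBI rats 19.3, 22.4, 38.9 and 44.0 CPM. Of the TBI rats at day 14, 2 were high, and the 2 whose levels lay within the sham range were replicates 2 and 3, the libraries rich in choroid plexus markers. The day 14 difference was 0.78 ± 0.25 and did not pass the test (adjusted p = 0.125, edgeR). Without the 3 libraries rich in those markers it was 1.21 and passed (adjusted p = 0.00478, edgeR), an alternative added after the values were seen. The day 1 rise was smaller against the sham rats of day 14, at 0.53 ± 0.25 (adjusted p = 0.0991, edgeR), since Tnc in sham rats was 0.77 ± 0.32 lower at day 1 than at day 14 on the log2 scale, a difference that itself missed the threshold (adjusted p = 0.102, edgeR). The day 1 rise was not called without sham day 1 replicate 2 (1.20). With the choroid plexus marker level as a covariate it was 1.01 ± 0.36 and did not pass (adjusted p = 0.0656, edgeR).

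Vcan encodes versican, the lectican of glial precursors, vessels and growing tissue. It was at 58.3 and 60.0 CPM in sham and 70.6, 74.2, 83.1 and 113 CPM in TBI rats at day 1. Every TBI rat was above both sham rats, but the difference of 0.53 ± 0.22 did not pass the test (adjusted p = 0.107, edgeR). With library totals in place of TMM factors it was 0.70 and passed (adjusted p = 0.0406, edgeR). At day 14 Vcan was at 61.6 to 74.5 CPM in sham and 46.2 to 84.8 CPM in TBI rats (−0.03 ± 0.18, adjusted p = 0.984, edgeR).

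Ptprz1, which glial precursors and astrocytes express strongly, was at 589 and 630 CPM in sham and 659, 689, 735 and 815 CPM in TBI rats at day 1. All 4 TBI rats were higher, by 0.25 ± 0.15, which did not pass the test (adjusted p = 0.260, edgeR). Its larger difference was between the days. Sham rats had 365 to 451 CPM at day 14, below sham rats at day 1 by 0.56 ± 0.15 (adjusted p = 0.0175, edgeR), and that call was lost without either sham day 1 rat (adjusted p = 0.0692 and 0.0598, edgeR) and without the 3 libraries rich in choroid plexus markers (0.52 ± 0.19, adjusted p = 0.0903, edgeR). Against the sham rats of day 14 in place of day 1, the TBI day 1 rats were higher by 0.81 ± 0.12 (adjusted p = 0.000103, edgeR). With all 6 sham rats as baseline the difference was 0.60 ± 0.16 (adjusted p = 0.00853, edgeR). Both of these contrasts also span the days. At day 14 TBI rats had 328 to 441 CPM, and the difference from sham was −0.17 ± 0.12 (adjusted p = 0.679, edgeR).

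**Figure D2:**
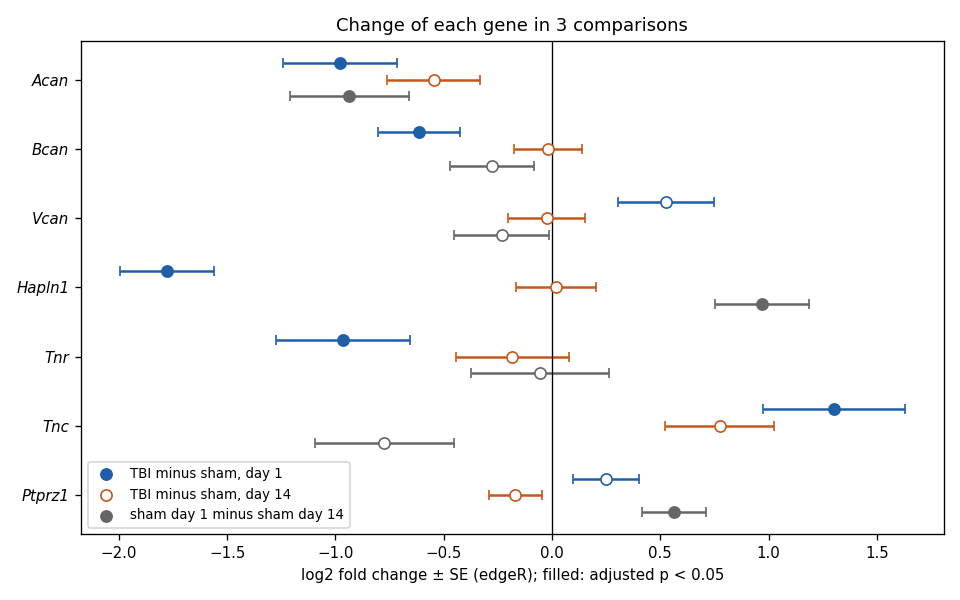
Log2 fold change ± SE of the 7 tested genes for TBI minus sham at day 1 (n = 4 and 2), TBI minus sham at day 14 (n = 4 and 4) and sham day 1 minus sham day 14 (n = 2 and 4), with filled points for an adjusted p under 0.05 by edgeR. Filled day 1 points lie left of 0 for Acan, Bcan, Hapln1 and Tnr and right of 0 for Tnc, and no day 14 point is filled.

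At 14 days 0 of the 7 genes passed the test by edgeR, beside 4.07% of all tested genes called higher and 0.365% called lower. DESeq2 and limma-voom called 0 as well, and 2 of the 7, Acan and Tnc, had an unadjusted p under 0.05. The TBI and sham ranges overlapped for all 7, beside 15% of all genes whose groups did not overlap. Effects of TBI past the threshold at day 1 and not at day 14 were tested for the difference itself, and apart from Hapln1 those tests did not pass: the difference between the days was −0.43 ± 0.34 for Acan, −0.60 ± 0.25 for Bcan, −0.78 ± 0.41 for Tnr and 0.53 ± 0.40 for Tnc.

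TBI rats were also compared with each other across the days. Of the 7 genes 4 were higher at day 14 than at day 1 and 1 was lower, beside 17.6% and 21.9% of all tested genes. Acan was higher by 1.37 ± 0.22 (adjusted p = 0.000287, edgeR), Bcan by 0.88 ± 0.16, Tnr by 0.84 ± 0.26 and Hapln1 by 0.83 ± 0.19, and Ptprz1 was lower by 0.98 ± 0.12 (adjusted p = 3.80e-05, edgeR). The Tnr groups overlapped, and its call was lost without TBI day 1 replicate 3 (0.67, adjusted p = 0.0584, edgeR) and without TBI day 14 replicate 1 (0.71, adjusted p = 0.0636, edgeR). Without the 3 libraries rich in choroid plexus markers Tnc was also called, at 0.69 ± 0.22 (adjusted p = 0.0335, edgeR). The same TBI day 1 rats enter this comparison and the day 1 comparison with sham. The days also differed in sham rats, where 2 of the 7, Hapln1 and Ptprz1, were higher at day 1 and 1, Acan, was lower, beside 11.3% and 7.88% of all tested genes, so a part of time since surgery and a part of injury cannot be told apart in the TBI rats alone.

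Ratios within a library do not depend on its scaling. The ratio of Tnc to Tnr counts was 0.0617 and 0.136 in sham rats at day 1 and 0.337, 0.340, 0.414 and 0.702 in TBI rats. At day 14 it was 0.107, 0.122, 0.147 and 0.228 in sham and 0.180, 0.291, 0.316 and 0.317 in TBI rats. The TBI rats lay above all sham rats at day 1, and at day 14 all but TBI replicate 3 did. The ratio of Vcan to Acan counts was 5.06 and 8.12 in sham and 14.7, 16.5, 16.9 and 26.7 in TBI rats at day 1. At day 14 it was 3.60, 3.74, 3.85 and 4.23 in sham and 4.25, 4.89, 5.85 and 7.02 in TBI rats, so that every TBI rat again had the higher ratio, the nearest pair by a narrow margin. The ratios combine members already described and were given no test.

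**Figure D3:**
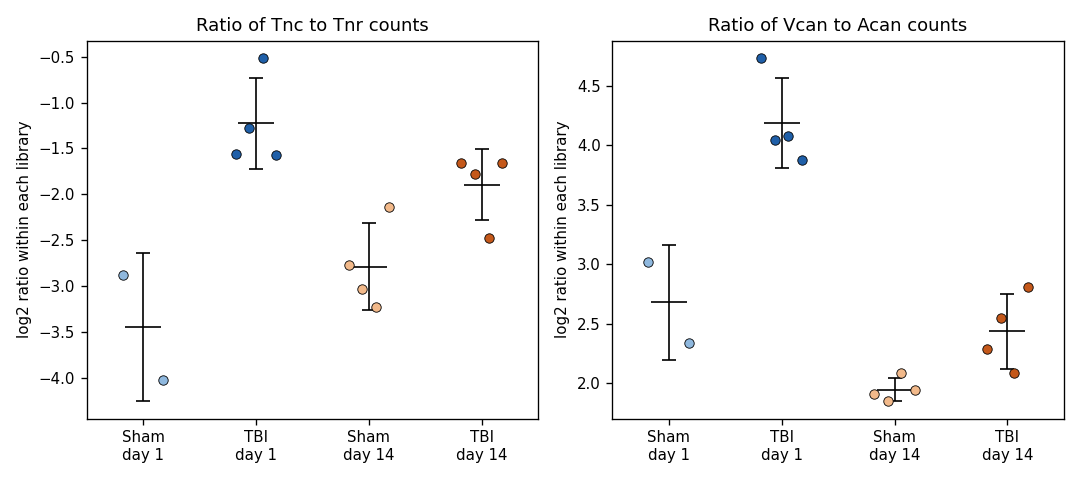
Log2 ratio of Tnc to Tnr counts (left) and of Vcan to Acan counts (right) within each library, with 1 point per rat and a dash and bar for mean and SD (n = 2, 4, 4 and 4). In both panels the 4 TBI day 1 points lie above every sham point, and the mean log2 Vcan to Acan ratio was 4.19 in TBI and 2.68 in sham rats at day 1.

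Each lectican gene sits beside a link protein gene in the rat genome, as RefSeq orders the protein-coding genes of GRCr8, a newer build than the rn5 used for counting. Acan lies next to Hapln3, Bcan next to Hapln2, Vcan next to Hapln1 and Ncan next to Hapln4, on chromosomes 1, 2, 2 and 16. The direction was not shared within the pair that holds both a tested lectican and a tested member link protein: at day 1 Hapln1 fell and its neighbour Vcan had a positive log2 fold change. Hapln3, at −0.45 ± 0.33 (adjusted p = 0.355, edgeR), and Hapln2, at 1.03 ± 0.55 (adjusted p = 0.202, edgeR), did not pass the test.

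Ncan encodes neurocan, a lectican known as abundant in the developing and injured brain, and Hapln4 encodes a link protein of nets. In these counts Ncan had 0 to 6 counts per library, 34 in all, and Hapln4 0 to 5, 31 in all. Ncan was at 0 in 5 libraries, both sham day 1 rats among them, and a count of 0 allows up to 0.134 to 0.197 CPM there, for counting error only. Their next neighbour, Tm6sf2, had 4 counts in all 14 libraries. The genes on either side of these 3, Nr2c2ap and Sugp1, had 8168 and 14729 counts. The 3 adjacent genes were therefore all near 0 between 2 well-counted genes, and no change of Ncan or Hapln4 could be measured from these counts. Whether the counts reflect the RNA of these genes was not tested, so the limit above holds only for reads as they were assigned.

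**Figure D4:**
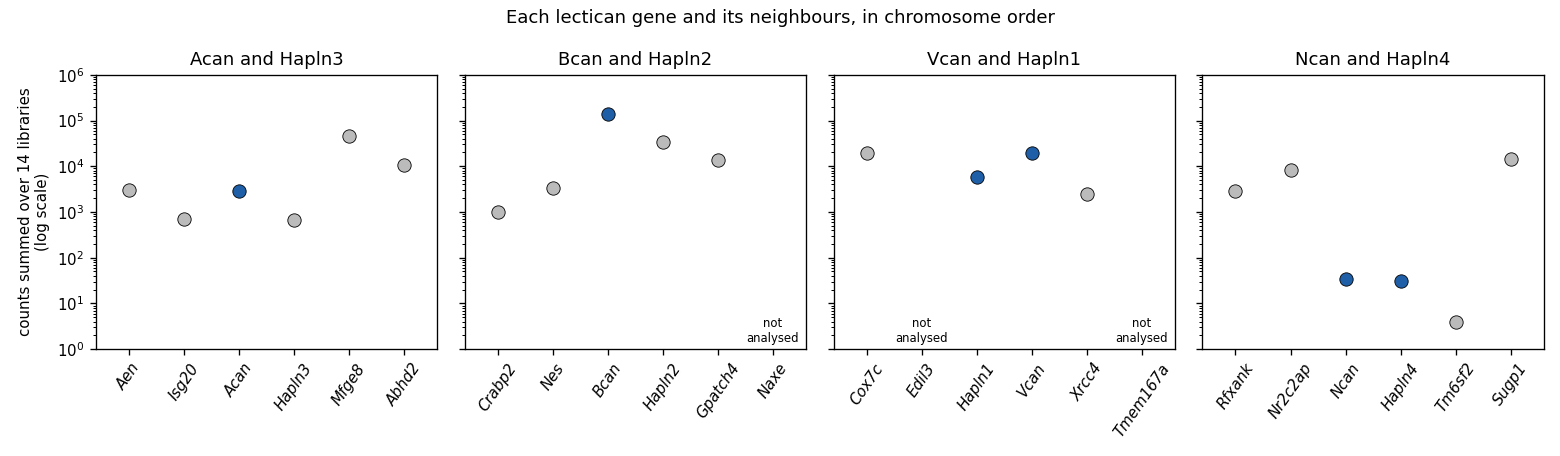
Counts summed over 14 libraries, on a log axis, for each lectican gene, the link protein gene beside it and the 2 protein-coding genes on either side, in GRCr8 order, with members of the set in blue and other genes in grey. Ncan (34), Hapln4 (31) and Tm6sf2 (4) lie far below their outer neighbours.

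RefSeq promoters of GRCr8 were found for 8 of the 9 genes, not for Ptprz1. The 250 bases before the start are shown for 3 of the 4 genes that fell at day 1 and for Tnc, which rose. They are in lower case with motif matches in capitals. Each motif was searched on both strands. The letters were TATANAA for the TATA box and GGGCGG for the GC box. They were TGANTCA for the AP-1 site, while TTCNNNGAA stood for the STAT site and the letters CACGTG for the E-box.
Acan promoter, chr1:142390701-142390950, plus strand: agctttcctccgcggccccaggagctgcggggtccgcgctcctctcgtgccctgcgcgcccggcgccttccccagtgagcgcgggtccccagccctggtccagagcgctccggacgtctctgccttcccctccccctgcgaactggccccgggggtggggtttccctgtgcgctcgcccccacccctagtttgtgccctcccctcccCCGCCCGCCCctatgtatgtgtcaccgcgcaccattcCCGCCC
Hapln1 promoter, chr2:22366717-22366966, plus strand: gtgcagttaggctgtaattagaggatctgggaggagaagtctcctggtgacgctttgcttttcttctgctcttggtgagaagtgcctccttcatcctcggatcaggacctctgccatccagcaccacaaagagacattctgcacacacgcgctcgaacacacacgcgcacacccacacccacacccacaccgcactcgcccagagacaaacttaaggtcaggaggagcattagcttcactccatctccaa
Tnr promoter, chr13:74624776-74625025, plus strand: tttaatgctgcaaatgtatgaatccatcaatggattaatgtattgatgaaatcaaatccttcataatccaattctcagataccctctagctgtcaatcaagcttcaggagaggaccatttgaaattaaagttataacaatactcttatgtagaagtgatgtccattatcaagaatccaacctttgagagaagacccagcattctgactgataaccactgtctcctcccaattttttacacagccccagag
Tnc promoter, chr5:82476132-82476381, minus strand: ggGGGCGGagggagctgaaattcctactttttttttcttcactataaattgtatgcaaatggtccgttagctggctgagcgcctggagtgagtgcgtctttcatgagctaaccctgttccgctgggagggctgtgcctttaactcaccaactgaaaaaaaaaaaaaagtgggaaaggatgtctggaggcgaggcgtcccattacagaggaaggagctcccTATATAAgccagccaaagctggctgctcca
The genes that fell together did not share a promoter type by these letters. The Acan window was 73.6% G and C and held 3 matches to the GC box, 2 of them overlapping. That of Bcan, which is not shown, was 61.2% and held 1 GC box. Hapln1 (54%) and Tnr (36.8%) held none of the 5 motifs. The median of all 33469 promoters was 51.2%, and 30.5% of them held a GC box. Tnc had a GC box and, 30 bases before the start, a TATA box, which 11.6% of all promoters held anywhere in the window. The AP-1 site, the STAT site and the E-box, present in 6.34%, 7.67% and 5.59% of all promoters, were not matched in the promoters of the members.

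The genes that build, cut and bind net components were followed in 5 lists. For chondroitin sulfate synthesis and sulfation, which makes the sugar chains of the lecticans, 2 of 18 tested genes rose and 3 fell at day 1, near the background of 11.2% and 7.93%. Dse (1.36 ± 0.27, adjusted p = 0.00283, edgeR), an epimerase that turns chondroitin into dermatan sulfate, rose, and so did Chst14 (0.99 ± 0.30), which sulfates dermatan. Chst15 (−1.16 ± 0.25, adjusted p = 0.00541, edgeR), which makes the doubly sulfated E unit, Chst7 (−1.04 ± 0.29), a 6-O-sulfotransferase, and Ust (−0.91 ± 0.30), a 2-O-sulfotransferase, fell. The calls of Chst14, Chst15, Chst7 and Ust were lost without sham day 1 replicate 2, where 1 gene was higher and 0 were lower. Chst14 and Chst7 kept their calls in 12 of 14 fits that left out 1 library and Ust in 3 of 14, and against the sham rats of day 14 Ust differed by −0.04 (adjusted p = 0.905, edgeR). At day 14 0 of the 18 were called by edgeR.

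Of 12 tested genes of hyaluronan synthesis, binding and turnover, 3 rose and 0 fell at day 1, beside 11.2% and 7.93% of all genes. Cd44, the main hyaluronan receptor of reactive glia and leukocytes, rose by 3.66 ± 0.40 (adjusted p = 3.41e-05, edgeR), Lyve1, a hyaluronan receptor of lymphatic vessels and some macrophages, by 2.20 ± 0.27, and Hyal2, a hyaluronidase, by 0.83 ± 0.23. The call of Hyal2 was lost without sham day 1 replicate 2 and without TBI day 1 replicate 2. Against the sham rats of day 14 Hyal2 differed by 0.28 (adjusted p = 0.228, edgeR). Against all 6 sham rats it differed by 0.44 (adjusted p = 0.0920, edgeR). Without sham day 1 replicate 2, 2 genes of the list were higher and 1 was lower, and without TBI day 1 replicate 1, 5 were higher. At day 14 Cd44 alone was called, at 1.84 ± 0.29 (adjusted p = 0.00104, edgeR).

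Of 12 tested proteases that cut lecticans and their inhibitors, 4 rose and 0 fell at day 1, beside 11.2% and 7.93% of all genes, and 8 did not pass the test. Without sham day 1 replicate 2, 4 were higher and 2 lower, and without sham day 1 replicate 1, 6 were higher. Timp1, an inhibitor of metalloproteinases, rose by 6.31 ± 0.48 (adjusted p = 2.46e-06, edgeR). Adamts1, a protease that cleaves aggrecan and versican, rose by 2.69 ± 0.38 and the gelatinase Mmp9 by 2.25 ± 0.35. Adamts4 (0.58 ± 0.27, adjusted p = 0.145, edgeR) and Adamts5 (0.59 ± 0.47, adjusted p = 0.408, edgeR), the best known aggrecanases, did not pass. At day 14 2 genes were called: Timp1 at 1.69 ± 0.31 and the gelatinase Mmp2 at 1.55 ± 0.40 (adjusted p = 0.0360, edgeR). The Mmp2 call held in 7 of 14 fits that left out 1 library, between 1.37 and 1.64. It was lost without any of the 4 sham day 14 libraries and without TBI day 14 replicates 1, 3 or 4 (1.37 and adjusted p = 0.0951 without replicate 3, edgeR), and with the choroid plexus marker level as a covariate (1.07, adjusted p = 0.0966, edgeR). It held without the 3 libraries rich in those markers (1.42 ± 0.28, adjusted p = 0.00912, edgeR).

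Receptors and partners of the net components gave 4 of 21 tested genes higher and 4 lower at day 1, beside 11.2% and 7.93% of all genes, and 1 higher and 3 lower without sham day 1 replicate 2. The integrin subunit Itgb3 (1.65 ± 0.46), the heparan sulfate proteoglycan Sdc4 (1.11 ± 0.18) and Ptprf (1.02 ± 0.20), a receptor phosphatase that binds proteoglycans, rose. Cntn1, a neuronal ligand of tenascin-R and phosphacan, fell by 1.24 ± 0.22 (adjusted p = 0.00167, edgeR), Rtn4r, a receptor for growth inhibitors, by 0.95 ± 0.19, and Cntn2 by 0.64 ± 0.21. The call of Itgb3 was lost without either sham day 1 rat, as was that of Cntn2, which lay just under the threshold and held in 3 of 14 fits that left out 1 library, and the call of Ptprf without sham day 1 replicate 2. At day 14 Sdc4 alone was called (0.64 ± 0.14, adjusted p = 0.0109, edgeR), and not without sham day 14 replicate 2 (0.56, adjusted p = 0.0532, edgeR). Of 12 other proteoglycans, link proteins and tenascins, the testicans Spock3 (−1.38 ± 0.28), Spock2 (−1.32 ± 0.27) and Spock1 (−0.77 ± 0.21), proteoglycans of the brain matrix, fell at day 1, and none passed at day 14 by edgeR. Without sham day 1 replicate 2 the 3 testicans were not called, and without sham day 1 replicate 1, 2 genes of the list were higher.

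**Figure D5:**
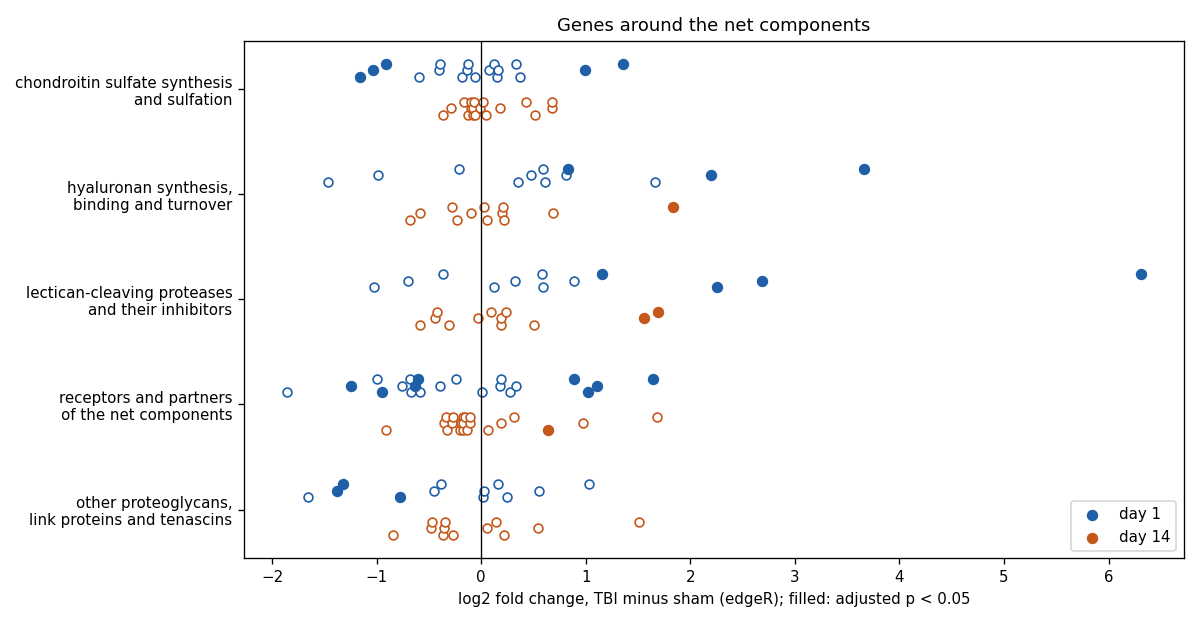
Log2 fold change of TBI minus sham for each tested gene of the 5 lists, at day 1 (blue) and day 14 (orange), with filled points for an adjusted p under 0.05 by edgeR and points spread vertically for legibility. At day 1 the filled points of the hyaluronan and protease lists all lie right of 0, up to 6.31 for Timp1, whereas the other proteoglycans have filled points at −0.77 to −1.38 only.

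Some markers of the cells that wear or make these components were called at day 1 as well. Over all tested genes, 11.2% were called higher and 7.93% lower at day 1. At day 14 these shares were 4.07% and 0.365%. Of 10 markers of interneurons, net-bearing ones among them, 8 were lower, and their summed level was 715 and 1034 CPM in sham and 411 to 579 CPM in TBI rats. Pvalb changed by −0.62 ± 0.20 (adjusted p = 0.0463, edgeR) and the fast-spiking potassium channel gene Kcnc1 by −0.92 ± 0.16 (adjusted p = 0.00122, edgeR). Without sham day 1 replicate 2, 1 of the 10 was called. At day 14 the sums were 806 to 976 CPM in sham and 696 to 708 CPM in TBI rats and 0 of 10 were called by edgeR. Of 8 markers of excitatory neurons 3 were lower at day 1, with sums of 8413 and 9506 CPM in sham and 3065 to 6589 CPM in TBI rats. That count was 0 without sham day 1 replicate 2, 5 without sham day 1 replicate 1 and 6 without TBI day 1 replicate 4.

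Among glial markers, 4 of 8 of oligodendrocytes were lower at day 1, with sums of 10891 and 14902 CPM in sham and 4158 to 15723 CPM in TBI rats, and that count was 1 without either sham day 1 rat and 6 without TBI day 1 replicate 1. Of 8 markers of oligodendrocyte precursors, which express Vcan and Ptprz1, 1 was lower, and their sums were 521 and 611 CPM in sham and 439 to 613 CPM in TBI rats. It was not called without either sham day 1 rat or without TBI day 1 replicate 2. Of 9 astrocyte markers 2 were higher and 1 lower, with sums of 4675 and 7271 CPM in sham and 11310 to 17530 CPM in TBI rats. Without Gfap the sums overlapped, at 3723 and 5713 CPM in sham and 4192 to 4884 CPM in TBI rats, and the median log2 fold change of the list was −0.31. The count of 2 higher held in 3 of 14 fits that left out 1 library. Gfap, which reactive astrocytes raise, was higher by 3.10 ± 0.32 at day 1 and 2.06 at day 14 (adjusted p = 2.02e-05 and 7.26e-05, edgeR). Of 8 markers of microglia and macrophages 4 were higher and 2 lower at day 1 and 7 higher at day 14, and of 8 vascular and fibroblast markers 1 was higher at day 1 (4 without sham day 1 replicate 1 and 0 without replicate 2). Over all tested genes, 11.2% were called higher and 7.93% lower at day 1, and 4.07% and 0.365% at day 14. The day 1 counts of precursor and vascular markers lay near those shares. The part of these cell types in the changes of the net genes was not tested.

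For each called gene, the tested genes whose log2 CPM over the 14 samples, centred on the sham day 14 mean, lay nearest were found by root mean square difference. Nearest to Hapln1 were Cyp26b1 (0.300) and Olfm3 (0.301), to Acan Slit3 (0.226) and Clstn3 (0.248), to Bcan Psd2 (0.130) and Smo (0.137), to Tnr Pde10a (0.197) and Sptb (0.202), and to Tnc Galns (0.288) and Pygl (0.313). Cyp26b1 encodes an enzyme that degrades retinoic acid. Its mean relative to sham day 14 was 0.96 in sham and −0.89 in TBI rats at day 1, and that of Hapln1 0.96 and −0.85, so both stood above sham day 14 in the sham rats of day 1 and below it in the injured ones. The likeness is a description of these samples, without a test.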

How the data were processed

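RNA-seq of ipsilateral hippocampus from 14 rats was used. Per the labels and methods, the authors made stranded mRNA libraries, checked reads with FastQC 0.11.8, aligned them to rn5 (STAR 2.4.2a) and assigned them to UCSC gene models (featureCounts 1.5.0), and the deposited counts are whole numbers without normalization. The strand setting of the counting is not given in the sources used here. H3K4me3 peak lists carry no gene names and were not used here. The study's description of animals and its results differ in the number of sham rats at day 14, and all 4 labelled samples were used.

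The members and lists were chosen with earlier results of these data known. The test was that of edgeR 4.0.16 under R 4.3.3 (factors by TMM, default low-count filter by group, 1 quasi-likelihood fit with a mean per group, two-sided, threshold 0.05). CPM used TMM-scaled totals, and log2 CPM a prior count of 2. Named are all 9 members, up to 3 of the largest rises and falls among called genes of each list with a mean log2 CPM above 0, and for each called member the 2 genes nearest in pattern. Markers, Adamts4, Adamts5, Hapln2, Hapln3 and the neighbours of Ncan fall outside that rule and were named after their values were seen. Genes of the lists that were not among the counted genes were not analysed here.

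Pairs of replicates differed by more than sampling noise (chi-squared over its degrees of freedom 12.9 to 168), so no library was counted as a repeat of another, and p-values measure the spread between these rats. Alternatives were DESeq2 1.42.0, limma-voom (limma 3.58.1), median-of-ratios factors, other filters, a threshold of 0.01, a replicate block, only the compared groups, other sham baselines, a choroid plexus covariate and each library left out. Library totals without TMM and leaving out 3 libraries rich in choroid plexus markers were added after seeing the data. The fits were tested on data simulated for the day 1 contrast. There edgeR recovered 2 of 67 genes at a true 1.5-fold change, 30 of 67 at 2-fold and 58 of 66 at 4-fold. It made 4 false calls. Changes of 1.5-fold were thus mostly missed in that simulation. Only these 67, 67 and 66 genes of 12875 were changed there, whereas 1437 rose and 1021 fell in the real day 1 contrast. Recovery in the real data may therefore differ. Figures were drawn with matplotlib 3.10.9.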

Additional observations from a re-analysis of the deposited data

Results flagged for a closer look

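The effect of TBI differed between day 1 and day 14 for 8 of the genes named above, by the test of the difference itself (adjusted p under 0.05, edgeR). Over all tested genes, 2.24% passed with a positive difference and 1.44% with a negative one. The genes outside the set were named because they were called with the largest changes at 1 of the days. Their number therefore does not measure how often effects differ. Hapln1 was the one member among the 8, of 7 members tested. Its difference was −1.80 on the log2 scale, a fall at day 1 that was not seen at day 14. Among hyaluronan receptors, Cd44 differed by 1.82 and Lyve1 by 2.00, both with the larger rise at day 1, and neither passed without the 3 libraries rich in choroid plexus markers (1.20 and 1.87, adjusted p = 0.173 and 0.0511, edgeR). Among proteases and inhibitors, Timp1 differed by 4.62, Adamts1 by 2.18 and Mmp9 by 2.84, again with the larger value at day 1. Mmp2 differed in the other direction, by −2.58, with −1.02 ± 0.46 at day 1 (adjusted p = 0.131, edgeR) and 1.55 ± 0.40 at day 14. The libraries rich in choroid plexus markers were sham day 1 replicate 1 and TBI day 14 replicates 2 and 3, and without these 3 the difference for Mmp2 was −0.76 ± 0.47 and did not pass (adjusted p = 0.368, edgeR), with 0.67 ± 0.40 at day 1 and 1.42 ± 0.28 at day 14. Ptprf differed by 1.13, and by 1.17 without these 3 libraries (adjusted p = 0.0957, edgeR). Both effects share no rats, but the sham groups of the 2 days differ in number.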

How the results depend on the processing

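With 2 sham rats at day 1, calls near the threshold depend on the settings, while the fall of Hapln1 at day 1 and its difference between the days were called under every alternative run. Calls over all genes moved too. At day 1 the lower ones went from 1021 to 299 at an adjusted p under 0.01, 97 with only the groups compared and 573 with library totals. The higher ones went from 1437 to 788 at 0.01, 1354 with the choroid plexus covariate, 2332 with all 6 sham rats and 2051 with library totals. The number of members lower at day 1 was 4 and became 1 at 0.01, 1 with only the groups compared and 2 with library totals. Bcan and Tnr were the calls lost with library totals. The number of members higher was 1 (Tnc) and became 0 at 0.01 and 0 with the covariate. It became 2 with all 6 sham rats as baseline (Tnc and Ptprz1) and 2 with library totals (Tnc and Vcan). At day 14 it went from 0 to 1 higher with all 6 sham rats (Tnc, 0.99) and 1 without the 3 libraries rich in choroid plexus markers, and to 1 lower with only the groups compared. Between sham groups, 2 higher became 1 at 0.01 and 1 without those 3 libraries, and 1 lower became 0 at 0.01, 0 with the covariate, 0 without those libraries and 2 with only the groups compared. Leaving out each library in turn gave 2 to 4 lower and 0 to 1 higher at day 1 (2 lower without sham day 1 replicate 2 or TBI day 1 replicate 3, 0 higher without sham day 1 replicate 2), 0 to 1 higher at day 14 (1 without TBI day 14 replicate 3), and between sham groups 0 to 2 higher and 0 to 1 lower. Where such a fit left 1 sham day 1 rat, it was assumed to vary like the other groups. Over all genes at day 14, the higher calls went from 524 to 534 with all 6 sham rats. The lower ones went from 47 to 204 with only the groups compared. Between sham groups, the higher calls over all genes went from 1450 to 497 at 0.01. The lower ones went from 1014 to 255 at 0.01, 720 with the covariate and 1147 with only the groups compared.

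Changes close to 0 turned direction without a call. At day 14, Bcan was 0.00384 with at least 10 counts in every sample, 0.0175 with only the groups compared, 0.0704 with all sham rats, 0.0239 with library totals and 0.12 without the 3 libraries. Vcan was 0.082 with the covariate, 0.00913 with only the groups compared, 0.0482 with all sham rats, 0.0141 with library totals and 0.20 without the 3 libraries. Hapln1 was −0.38 with all sham rats, and Tnr 0.0287 with the covariate and 0.0681 without the 3 libraries. Tnr between sham groups was 0.15 with the covariate and 0.34 without the 3 libraries. With each library left out these ran from −0.11 to 0.0798 (Bcan), −0.15 to 0.14 (Vcan), −0.045 to 0.0807 (Hapln1) and −0.60 to 0.34 (Tnr, sham groups). The causes were not tested.

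The labels do not say that replicate numbers pair rats. The deviations of 18 same-numbered pairs correlated between −0.35 and 0.24 (median 0.03). Those of 54 other pairs correlated between −0.43 and 0.35 (median −0.03). The pairs share libraries, so these values cannot show whether rats were paired. With the replicate number as a block, Tnr at day 1 lost its call (−0.97, adjusted p = 0.0731, edgeR), and 3 members were lower. The ratio of Hapln1 to Hapln4 could not be given because Hapln4 was near 0.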
